A study of Mus musculus with 18 samples.

Results

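The 6 genes described here, Cldn12, Gtpbp10, Cfap69, Steap2, Steap1 and Sema3a, lie on mouse chromosome 5 on either side of the stretch that holds Abcb1a and Abcb1b. They were chosen by symbol out of the 24421 genes listed, for their place just outside that stretch and for how their levels in 4T1R1 and 4T1R2 compared, so their differences between populations, untreated and treated, are given below as a description with no test. Tests of the 6 genes are given for the response to 17-DMAG within each population and for the differences between these responses. All 6 genes passed the filter on low counts that left 13507 genes.

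The parental 4T1 line comes from a mammary carcinoma of the mouse. From it, 4T1R1 and 4T1R2 were generated independently of each other by repeated exposure to 17-DMAG, a water-soluble geldanamycin derivative that blocks the chaperone HSP90. RNA was taken from each population without treatment and after 1.5 µM 17-DMAG, and each of the 6 groups has 3 libraries. For the exposure, the sample records give 48 h and the series design 2 h, and for the selection the records give 3 rounds of 1.5 µM for 48 h and the design 1 µg/ml for 24 h. Each resistant population is a single selected population, so the spread between its libraries does not cover differences between selections. Replicates 1 and 2 of treated 4T1 agreed more closely than any other pair of libraries within a group. They were averaged into 1 sample, which leaves n = 2 in that group and 17 libraries in all. The 4T1R1 libraries carry a run of names separate from that of the 4T1 and 4T1R2 libraries, so for any contrast of 4T1R1 with either of them, population and library run cannot be told apart.

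Library totals ran from 23354461 to 55094630 counts. Of 8 epithelial markers, which include Epcam, Cdh1, Krt8 and Krt18, the summed normalized count was 76172 to 77246 in untreated and 75824 to 76224 in treated 4T1. It was 51283 to 53794 and 51612 to 53093 in 4T1R1, and 59401 to 60598 and 61235 to 62788 in 4T1R2. Krt5 was at or near 0 in every library. The 5 leukocyte markers summed to at most 23.3 and the 3 endothelial markers to at most 17.4 in any library. The 4 fibroblast markers summed to between 384 and 1028, most of it from Pdgfra. Their part in the results was not tested.

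Abcb1a and Abcb1b encode the rodent P-glycoproteins, pumps that move many drugs out of the cell, and drug-selected rodent cells are known in which the DNA around these genes is amplified together with neighbouring genes. DNA was not analysed here. The flanking genes are of unlike function. Cldn12 encodes a claudin, a membrane protein of the tight junction family. Gtpbp10 encodes a mitochondrial GTPase that takes part in assembly of the large mitochondrial ribosomal subunit. Cfap69 encodes a protein of cilia and flagella. Steap2 encodes a metalloreductase of iron and copper, and Steap1 a related membrane protein that lacks the reductase domain of its relatives. Sema3a encodes a secreted class 3 semaphorin that repels growing axons through neuropilin and plexin receptors.

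On GRCm38, 5 of the genes lie together on the minus strand within 0.260 Mb, at chr5:5489537-5514958 (Cldn12), chr5:5537454-5559538 (Gtpbp10), chr5:5579278-5664239 (Cfap69), chr5:5664829-5694578 (Steap2) and chr5:5736317-5749326 (Steap1). Their first coordinates lie 3.31 to 3.06 Mb before that of Abcb1b. Sema3a lies on the plus strand at chr5:13125414-13602565, 4.33 Mb after it. Between the end of Steap1 and the first gene of the Abcb1 span, Steap4, lay 2.21 Mb, in which Zfp804b had at most 2 reads in any library. Between the end of Dmtf1, the last gene of the span, and the start of Sema3a lay 3.96 Mb. No exon of the 6 genes overlapped an exon of another gene counted.

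Promoter sequences of 3 of the genes are shown because their results differ from each other. Cldn12 had the highest fold response to 17-DMAG of the 6 genes in 4T1, Cfap69 passed the test of that response in no population, and Steap1 differed least between 4T1R1 and 4T1R2. Each sequence is the 250 bases before a RefSeq start on GRCm38.p6, read 5′ to 3′ on the minus strand, at chr5:5514977-5515226 for Cldn12 (the window nearest the annotated gene start, of 3), chr5:5664233-5664482 for Cfap69 and chr5:5749318-5749567 for Steap1. Capitals mark matches to CCAAT or GGGCGG on either strand.
Cldn12: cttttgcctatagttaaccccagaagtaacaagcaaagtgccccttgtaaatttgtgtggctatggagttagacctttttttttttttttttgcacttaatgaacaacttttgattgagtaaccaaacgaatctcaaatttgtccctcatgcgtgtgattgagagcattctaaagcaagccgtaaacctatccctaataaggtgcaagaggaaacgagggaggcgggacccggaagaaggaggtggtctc
Cfap69: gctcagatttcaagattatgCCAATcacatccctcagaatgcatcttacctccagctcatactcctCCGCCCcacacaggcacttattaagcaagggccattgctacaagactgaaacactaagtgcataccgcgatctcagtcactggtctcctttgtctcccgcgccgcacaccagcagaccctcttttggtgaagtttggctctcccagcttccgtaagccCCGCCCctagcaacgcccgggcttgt
Steap1: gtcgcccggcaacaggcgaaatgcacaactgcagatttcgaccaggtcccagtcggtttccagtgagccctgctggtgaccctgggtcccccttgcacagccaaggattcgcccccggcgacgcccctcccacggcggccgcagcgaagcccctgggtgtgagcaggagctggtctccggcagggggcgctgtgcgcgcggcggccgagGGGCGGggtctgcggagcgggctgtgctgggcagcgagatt

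The Cldn12 window held none of the motifs searched, the Cfap69 window 1 match to CCAAT and 2 to GGGCGG, and the Steap1 window 1 match to GGGCGG. The other 2 Cldn12 windows, 109 and 169 bases from the annotated start, each held 1 match to CCAAT and 1 to GGGCGG, with 16 and 20 CG dinucleotides. CG dinucleotides numbered 6, 10 and 24 in the windows shown for Cldn12, Cfap69 and Steap1, against a median of 6 over 32851 RefSeq promoter windows of the same length. Over the 10 windows of the 6 genes, some of which overlap within a gene, CCAAT was found in 4, GGGCGG in 5 and TATAAA in 1, against shares of all windows of 33.8%, 32.7% and 12.4%. GAANNTTC, a pair of facing GAA units as in the heat shock element bound by HSF1, was in 0 of the 10 windows and in 6.69% of all windows. The only RefSeq window for Sema3a lies 271370 bases inside the annotated gene, so it does not cover that gene's annotated start.

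In untreated cells the 5 genes from Cldn12 to Steap1 were higher in 4T1R1 than in 4T1 and at or below the 4T1 level in 4T1R2, whereas Sema3a was at 0.710 of its 4T1 level in 4T1R1 and at a few reads in 4T1R2. Values are normalized counts, that is counts scaled to a common effective library size. In RNA from whole populations, fewer cells that express a gene and less RNA per cell cannot be told apart.

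Cldn12 had 2796, 2841 and 2992 normalized counts in the 3 untreated 4T1 libraries. It had 6384, 5624 and 6225 in 4T1R1. It had 1803, 1877 and 1715 in 4T1R2. The 3 populations did not overlap, with 4T1R1 highest and 4T1R2 lowest, and the fitted level in 4T1R1 was 2.11 times that in 4T1 and 3.38 times that in 4T1R2.

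Gtpbp10 had the same order. Its normalized counts were 1205, 967 and 1059 in 4T1, 2390.2, 2198 and 2426 in 4T1R1, and 707, 683 and 652 in 4T1R2. The populations again did not overlap, and 4T1R1 stood 2.17 times above 4T1 and 3.43 times above 4T1R2.

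Cfap69 separated only 4T1R1 from the other populations. Its normalized counts were 507, 394 and 470.1 in 4T1, 1661, 1364 and 1581 in 4T1R1, and 401, 442 and 524 in 4T1R2. The 4T1 and 4T1R2 libraries overlapped, with means of 457 ± 57.4 and 456 ± 62.6 (SD, n = 3 each), and the level in 4T1R1 was 3.36 times that in 4T1.

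Steap2 had the most reads of the 6 genes. Its normalized counts were 6990.4, 6463 and 6925 in 4T1, 20917, 19349 and 20842 in 4T1R1, and 5538, 5427 and 5692 in 4T1R2. Each population kept to a range of its own, and 4T1R1 stood 3.00 times above 4T1 and 3.67 times above 4T1R2.

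Steap1, next to Steap2 and nearest to the Abcb1 span, had 1484, 1493 and 1508 normalized counts in 4T1, 4360.1, 4154 and 4439.5 in 4T1R1, and 1567, 1497 and 1516 in 4T1R2. The ranges of 4T1 and 4T1R2 overlapped, while the level in 4T1R1 was 2.89 times that in 4T1 and 2.83 times that in 4T1R2.

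Sema3a, on the other side of the span, was low throughout. Its normalized counts were 98.8, 65.9 and 76.6 in 4T1, 61.0, 53.9 and 56.3 in 4T1R1, and 11.4, 5.185 and 6.97 in 4T1R2. The 4T1R2 values rest on 12, 4 and 6 reads. All 4T1R1 libraries lay below all 4T1 libraries, at 0.710 of the 4T1 level, and the 4T1R2 libraries lay below both, at 0.103 of the 4T1 level. The fewest reads of the 6 genes stand behind Sema3a.

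**Figure D1:**
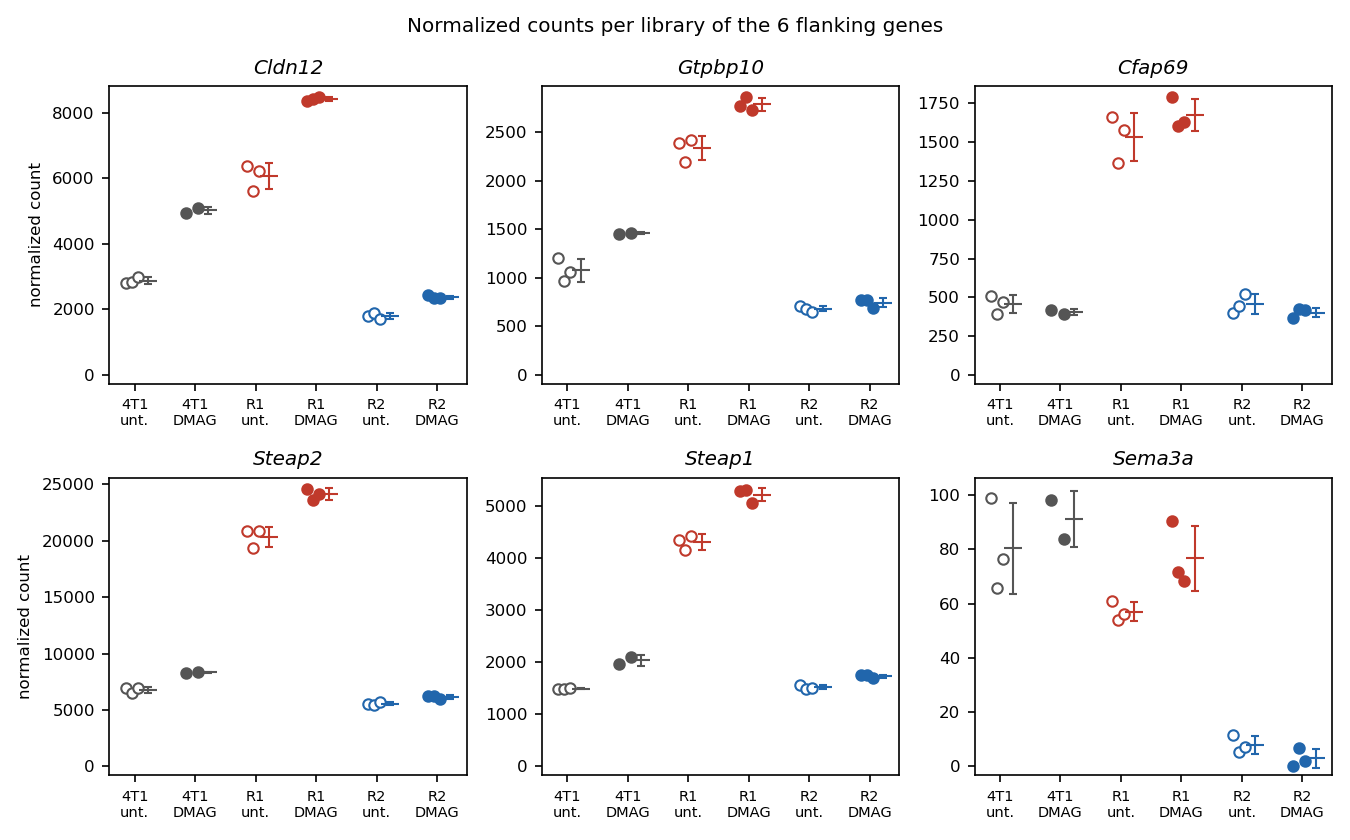
Normalized counts (vertical axes, linear, from 0) of each of the 6 genes in every library, by population and treatment (unt., untreated; DMAG, 17-DMAG). Circles are libraries, open for untreated and filled for treated, and the bars are means ± SD (n = 3, or 2 for treated 4T1); in the 5 genes from Cldn12 to Steap1 all 4T1R1 libraries lie above those of the other populations under the same treatment, and in Sema3a the 4T1R2 libraries lie lowest.

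By count, 5 of the 6 genes were at least 2-fold higher in untreated 4T1R1 than in untreated 4T1, as were 6.83% of all genes tested, and all 6 were at least 2-fold lower in untreated 4T1R2 than in untreated 4T1R1, as were 3.19% of all genes. Only Sema3a was at least 2-fold lower in untreated 4T1R2 than in 4T1, where the share of all genes was 3.07%. The genes were chosen with these comparisons known, so nothing is read from these shares.

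With 17-DMAG, the order of 4T1R1 and 4T1R2 was that of untreated cells. All 6 genes were at least 2-fold lower in treated 4T1R2 than in treated 4T1R1, as were 3.51% of all genes tested, and in none of the 6 did the libraries overlap. The choice of the genes covered the treated groups too, so nothing is read from this share or from the lack of overlap.

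Cldn12 had 8368, 8418 and 8476 normalized counts in treated 4T1R1 and 2424, 2339 and 2333 in treated 4T1R2. The log2FC of 4T1R2 against 4T1R1 was -1.83 ± 0.039 (SE). The treated 4T1 samples, at 4949 and 5097, lay between them.

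Gtpbp10 had 2766, 2867 and 2730.0 in treated 4T1R1, 776, 767 and 694 in treated 4T1R2, and 1452.5 and 1466 in treated 4T1. As for Cldn12, the 4T1 samples lay between the resistant populations. The log2FC of 4T1R2 against 4T1R1 was -1.90 ± 0.058 (SE).

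Cfap69 had 1791, 1602 and 1628 in treated 4T1R1, 366, 422 and 419 in treated 4T1R2, and 419.5 and 391.9 in treated 4T1. Its log2FC of 4T1R2 against 4T1R1, -2.06 ± 0.083 (SE), was the largest among the 5 genes on its side. Treated 4T1R2 and 4T1 overlapped.

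Steap2 had 24636, 23627 and 24195 in treated 4T1R1, 6261, 6199 and 5992 in treated 4T1R2, and 8292 and 8385 in treated 4T1. The log2FC of 4T1R2 against 4T1R1 was -1.97 ± 0.032 (SE). The 3 populations did not overlap.

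Steap1 had 5297, 5315 and 5075 in treated 4T1R1, 1749.9, 1753 and 1699.5 in treated 4T1R2, and 1969 and 2112 in treated 4T1. The log2FC was -1.59 ± 0.039 (SE), the smallest of the 6 genes. Here treated 4T1R2 lay below treated 4T1, unlike in untreated cells, where the libraries overlapped.

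Sema3a had 90.5, 71.5 and 68.2 in treated 4T1R1, 98.4 and 83.7 in treated 4T1, and 0, 6.88 and 1.89 in treated 4T1R2. The last values rest on 0, 8 and 2 reads. Its log2FC of 4T1R2 against 4T1R1 was -4.62 ± 0.41 (SE), and with replicate 2 of treated 4T1R2 left out it was -6.19, a value that rests on 2 reads. The size of this difference is thus set by a few reads, while its direction was the same with each library left out.

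Against treated 4T1, 3 of the 6 genes, Cfap69, Steap2 and Steap1, were at least 2-fold higher in treated 4T1R1, as were 7.65% of all genes, a share from which nothing is read. The log2FC was 0.75 ± 0.042 (SE) for Cldn12, 0.93 ± 0.062 for Gtpbp10, 2.04 ± 0.096 for Cfap69, 1.53 ± 0.036 for Steap2 and 1.36 ± 0.044 for Steap1. Cfap69 thus stood furthest above 4T1 and Cldn12 least. Sema3a had a log2FC of -0.25 (95% confidence interval -0.79 to 0.29).

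In treated 4T1R2 against treated 4T1, 2 of the 6 genes, Cldn12 and Sema3a, were at least 2-fold lower, as were 3.63% of all genes, and nothing is read from this share either. The log2FC was -1.09 ± 0.043 (SE) for Cldn12, -0.97 ± 0.066 for Gtpbp10, -0.44 ± 0.035 for Steap2, -0.23 ± 0.045 for Steap1 and -4.86 ± 0.42 for Sema3a, the last of them -6.43 without replicate 2 of treated 4T1R2. Cldn12 was thus 2.12 times and Steap1 1.17 times below the level in 4T1. Cfap69 had a log2FC of -0.016 (95% confidence interval -0.23 to 0.19).

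**Figure D2:**
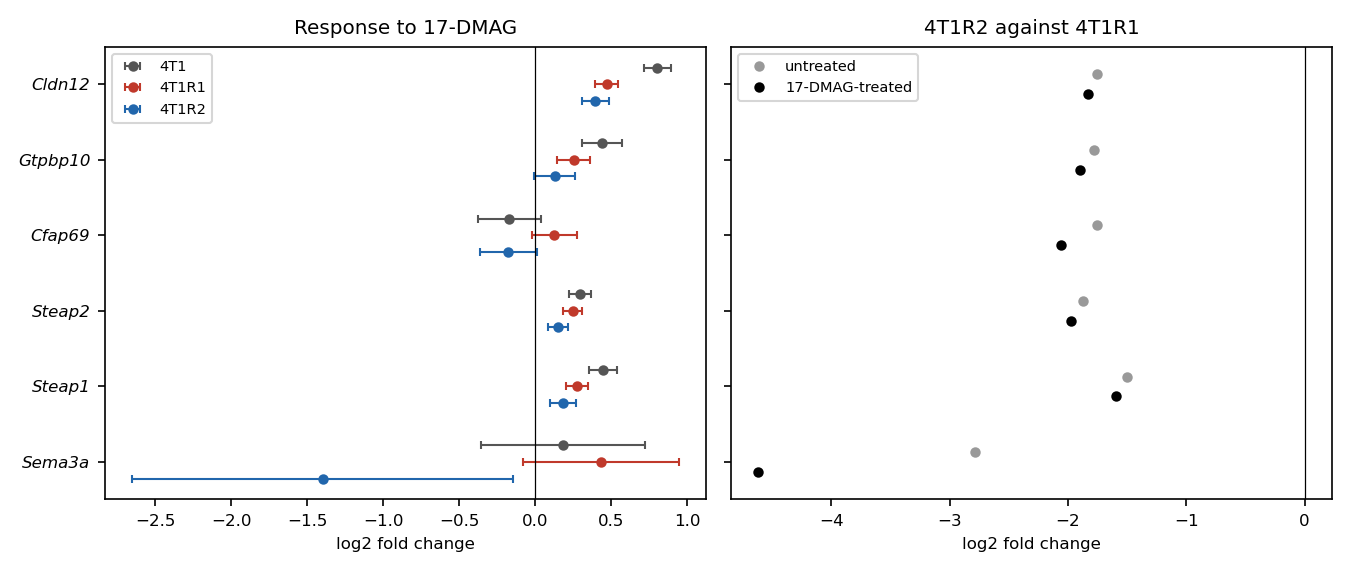
Fitted log2 fold changes (horizontal axes) of the 6 genes, in the response to 17-DMAG within each population (left) and in 4T1R2 against 4T1R1 (right). Points are fitted values and the bars on the left 95% confidence intervals, with no interval on the right, where the comparison is a description; all points on the right lie below 0, from -1.50 to -4.62, and on the left Cldn12 in 4T1 lies highest, at 0.80.

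Within the populations, exposure to 17-DMAG was followed by higher levels of most of these genes. Cldn12, Steap2 and Steap1 rose in every population, Gtpbp10 rose in 4T1 and 4T1R1, and Cfap69 and Sema3a passed the test in none. In 4T1, 4 of the 6 genes rose, beside 18.4% of all genes. The log2FC was 0.80 ± 0.043 (SE) for Cldn12, 0.44 ± 0.065 for Gtpbp10, 0.30 ± 0.036 for Steap2 and 0.45 ± 0.046 for Steap1, with adjusted P-values of at most 4.9e-07 (edgeR).

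The same 4 genes rose in 4T1R1, beside 13.9% of all genes. The log2FC was 0.47 ± 0.037 (SE) for Cldn12, 0.25 ± 0.053 for Gtpbp10, 0.25 ± 0.030 for Steap2 and 0.28 ± 0.036 for Steap1. Treated and untreated libraries did not overlap in any of the 4, nor in the 4 genes called in 4T1. In 4T1R1 they did not overlap in Sema3a either, which was not called (adjusted P-value 0.219, edgeR). The share of all genes without overlap was not computed, so nothing is read from the lack of overlap.

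In 4T1R2, 3 of the 6 genes rose, beside 6.18% of all genes. The log2FC was 0.40 ± 0.043 (SE) for Cldn12, 0.15 ± 0.033 for Steap2 and 0.18 ± 0.042 for Steap1. Gtpbp10, at 0.13 (95% confidence interval -0.0045 to 0.26), did not pass the test, with an adjusted P-value of 0.237 (edgeR).

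Cfap69 had responses of -0.17 in 4T1, 0.12 in 4T1R1 and -0.18 in 4T1R2, each with an interval that included 0 and overlapping libraries. Sema3a had responses of 0.18, 0.43 and -1.40. In 4T1R2 the Sema3a response had an adjusted P-value of 0.157 (edgeR), and without replicate 2 of treated 4T1R2 it was -2.97 with an adjusted P-value of 0.0221, again on 0 and 2 treated reads.

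The size of the response was lower in the resistant populations than in 4T1 for some of the genes, by a test of the difference between responses. Between 4T1R1 and 4T1, 2 of the 6 genes differed, both with the lower response in 4T1R1 (9.08% of all genes were called in that direction). The difference was -0.33 ± 0.057 (SE) on the log2 scale for Cldn12 and -0.17 ± 0.059 for Steap1, with adjusted P-values of 2.86e-05 and 0.0359 (edgeR). Steap1 lost this call with any 1 of 8 libraries left out, namely untreated 4T1R1 replicates 1 and 3, treated 4T1R1 replicate 3, any untreated 4T1 library, or treated 4T1 replicates 2 or 3. Gtpbp10 gained a call (-0.27) without untreated 4T1 replicate 1, and Cfap69 (0.39) without untreated 4T1 replicate 2.

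Between 4T1R2 and 4T1, 4 of the 6 genes differed, again with the lower response in the resistant cells (8.16% of all genes). The difference was -0.41 ± 0.061 (SE) for Cldn12, -0.31 ± 0.093 for Gtpbp10, -0.15 ± 0.048 for Steap2 and -0.26 ± 0.062 for Steap1. With replicate 3 of treated 4T1 left out, which leaves 1 sample in that group and takes its spread from the other groups, only Cldn12 kept its call, and the adjusted P-values of the other 3 genes (edgeR) became 0.0689, 0.145 and 0.0503. Gtpbp10 also lost it without untreated 4T1 replicate 2, untreated 4T1R2 replicate 1 or treated 4T1R2 replicate 3, and Steap2 without untreated 4T1 replicate 2, untreated 4T1R2 replicate 3 or treated 4T1R2 replicate 3. Sema3a had a difference of -1.58, and of -3.15, with an adjusted P-value of 0.00986 (edgeR), without replicate 2 of treated 4T1R2.

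Between 4T1R2 and 4T1R1 the test called 0 of the 6 genes, by edgeR and by DESeq2, beside 2.13% of all genes by edgeR. Before adjustment, 3 of the 6 had a P-value under 0.05 by edgeR. The share of all genes at that unadjusted threshold was not computed, so nothing is read from this count. The differences ran from -0.073 for Cldn12 (95% confidence interval -0.19 to 0.042) to -0.30 for Cfap69 (-0.54 to -0.059) among the 5 genes on the Cldn12 side. For Sema3a the difference was -1.83, with an adjusted P-value of 0.152 (edgeR), and without replicate 2 of treated 4T1R2 it was -3.40, with 0.0225.

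Read per kilobase of exon, so that genes can be compared with each other, Steap1 had the highest level in all 6 groups and Sema3a the lowest. In untreated 4T1 the order was Steap1, Cldn12, Steap2, Gtpbp10, Cfap69 and Sema3a, with levels of 1086 ± 9.05, 680.4 ± 24.3, 559 ± 23.7, 158 ± 17.6, 57.8 ± 7.26 and 5.80 ± 1.21 normalized counts per kb (SD, n = 3). Each neighbouring pair in this order was further apart than the sum of their SDs. In untreated 4T1R1, Steap2 stood above Cldn12, at 1677 ± 72.8 against 1438 ± 94.9, and in treated 4T1R1 the pair stood at 1989 ± 41.6 and 1992 ± 12.7, within their spread. In untreated 4T1R2 they were also close, at 457 ± 10.96 for Steap2 and 425 ± 19.2 for Cldn12.

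Along the chromosome, the genes on the Cldn12 side were part of a longer stretch that was higher in 4T1R1. Of 68 genes listed within 10 Mb of Abcb1b, 39 were tested, and 36 of these had more than 3 reads in at least 1 library of every group. The 20 of them up to Steap1, the 5 flanking genes included, had a median fold of 2.65 in untreated 4T1R1 against 4T1. The range was from 0.993 for Cyp51 to 6.96 for Lrrd1, and 15 of the 20 were at least 2-fold higher. Without the 5 chosen genes this held for 10 of 15, beside 6.83% of all genes. In untreated 4T1R2 the same 20 genes had a median of 0.838 times the 4T1 level. Of the 20, 18 were at least 2-fold lower in untreated 4T1R2 than in untreated 4T1R1. Without the 5 chosen genes this held for 13 of 15, beside 3.19% of all genes. The 6 genes are thus flanks of the Abcb1 span by position, and in 4T1R1 the higher levels were not limited to the span.

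Within the span, 10 of the 11 genes listed for it could be compared with 4T1 and had a median fold of 5.996 in untreated 4T1R1, from 2.47 to 14.9, and of 17.1 in untreated 4T1R2, from 3.90 to 49.6. Abcb4, which lies between Abcb1b and Crot at chr5:8893717-8959231, was not in that list and was named after its values were seen. It had means of 2.77, 73.6 and 235.9 normalized counts in untreated 4T1, 4T1R1 and 4T1R2, and its fitted folds against 4T1 of 25.9 and 82.8 rest on 0 to 6.18 normalized counts in 4T1. In treated cells all 11 listed genes had higher fitted levels in 4T1R2 than in 4T1R1, where all 6 flanking genes had lower ones. Steap4, the span gene nearest to Steap1, had 0 reads in every untreated 4T1 library, 22 to 38 in untreated 4T1R1 and 29 to 42 in untreated 4T1R2. The order of 4T1R1 and 4T1R2 thus turned between Steap1, 2.83 times lower in untreated 4T1R2, and the first genes of the span.

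On the other side, 9330182L06Rik and then Grm3 lie between Dmtf1 and Sema3a. In untreated cells 9330182L06Rik had 0 to 4 reads in 4T1, and 59 to 102 in 4T1R1 overlapped 70 to 106 in 4T1R2. Grm3, which encodes a glutamate receptor, had 0 reads in every 4T1 library, 8 to 14 in untreated 4T1R1 and 14 to 38 in untreated 4T1R2. The next gene, Sema3d, had at most 2 reads in any library. Beyond them came Sema3a, and then Speer3, with 72 to 87 reads in untreated 4T1, 129 to 181 in untreated 4T1R1 and 23 to 39 in untreated 4T1R2. Speer3 and Sema3e, the next genes that could be compared, stood at 1.83 and 4.09 times the 4T1 level in untreated 4T1R1, on the same side of 1 as the genes from Cldn12 to Steap1, while Sema3a between them and the span stood at 0.710. The annotated gene before Cldn12, 1700015F17Rik, had at most 8 reads in any library, and Cdk14, a cyclin-dependent kinase gene before it, had 1770 to 1902 reads in untreated 4T1, 3030 to 3762 in untreated 4T1R1 and 948 to 1134 in untreated 4T1R2, the order of Cldn12 and Gtpbp10.

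**Figure D3:**
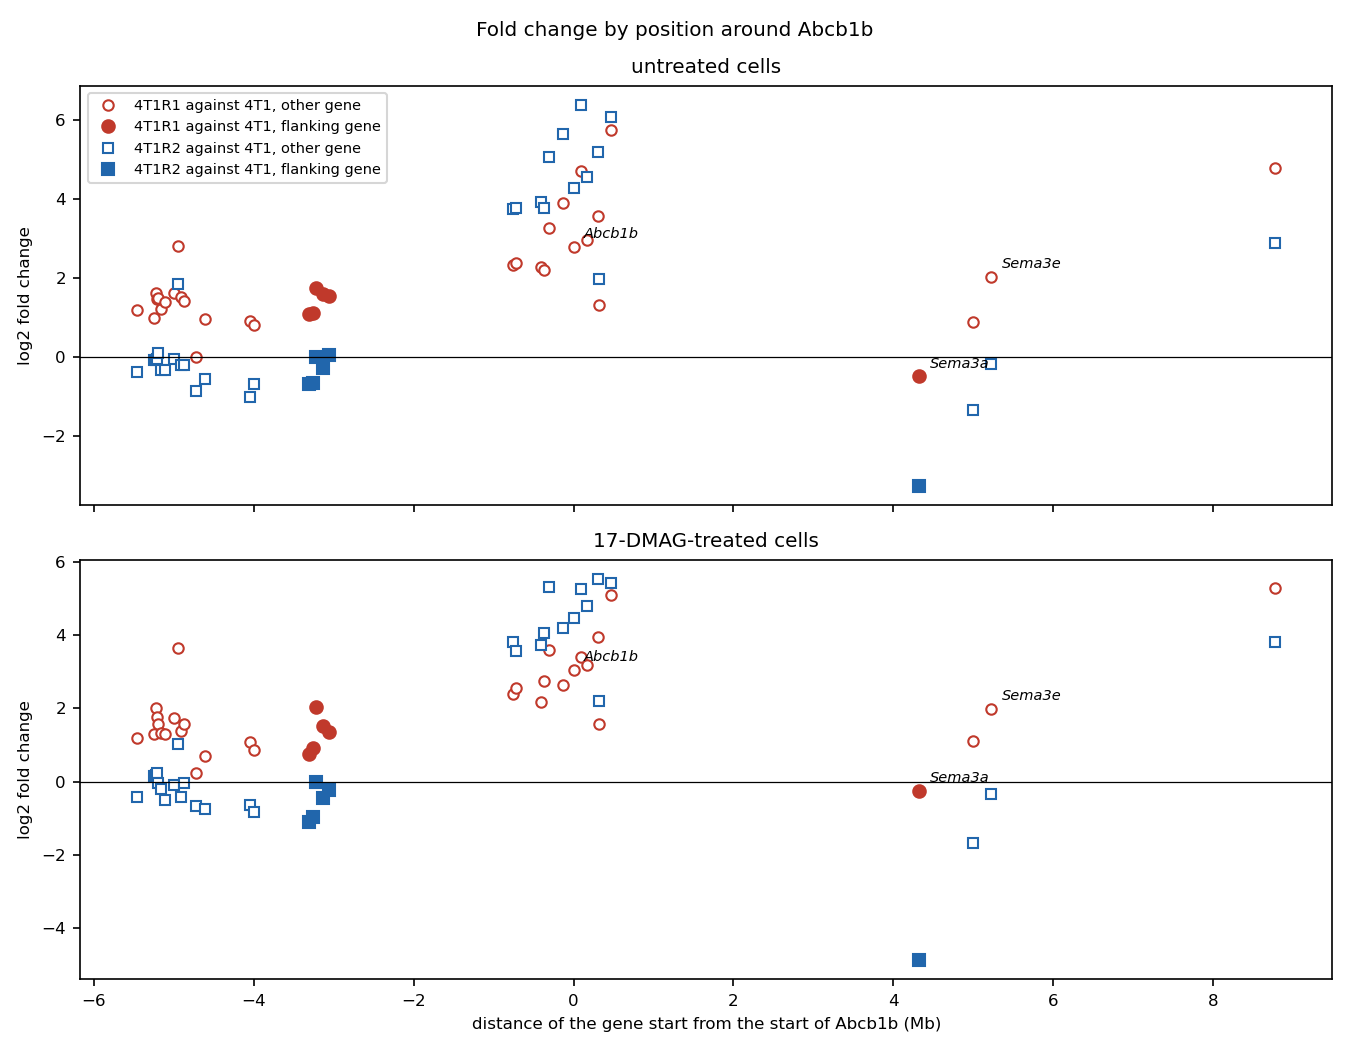
Log2 fold change against 4T1 (vertical axes) by the distance of the gene's start from that of Abcb1b in Mb (horizontal axis), for untreated cells (top) and 17-DMAG-treated cells (bottom). Circles stand for 4T1R1, squares for 4T1R2 and filled marks for the 6 flanking genes, each mark 1 gene; before the span the circles lie above the squares, within it the squares lie above the circles, and Sema3a in 4T1R2 lies lowest.

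Further along chromosome 5 only the medians of 10 Mb bins were read, in which a raised stretch shorter than a bin could go unseen. In 14 bins of 10 Mb from 20 Mb on, which hold 783 genes, the median log2FC in untreated cells ran from -0.49 to -0.17 for 4T1R1 against 4T1 and from -0.44 to -0.13 for 4T1R2 against 4T1. The bin from 10 to 20 Mb, which holds Sema3a, has only 5 genes tested.

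**Figure D4:**
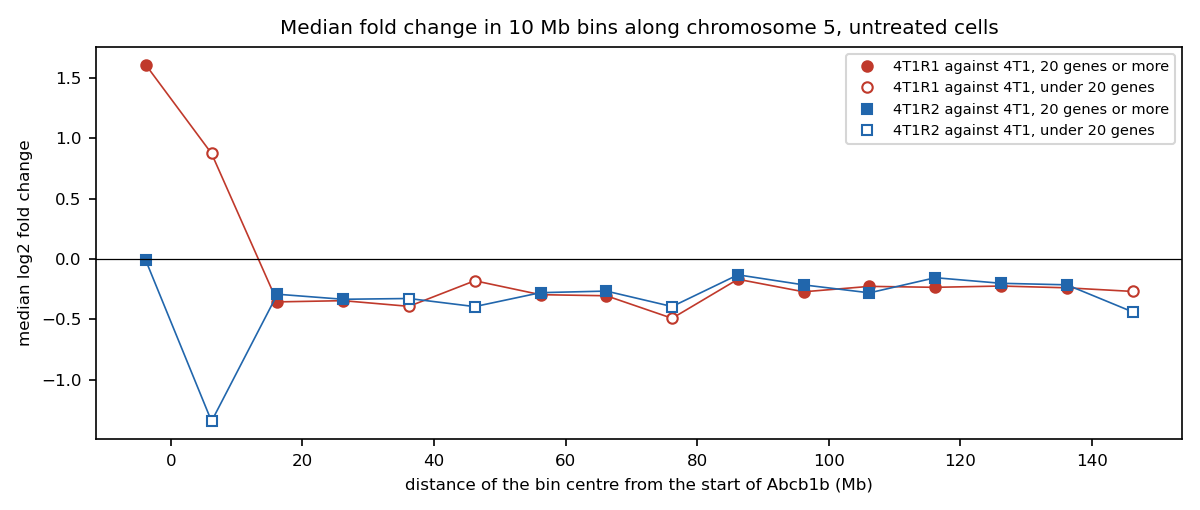
Median log2 fold change against untreated 4T1 (vertical axis) in 10 Mb bins along chromosome 5, by the distance of the bin's centre from the start of Abcb1b in Mb (horizontal axis). Circles stand for 4T1R1 and squares for 4T1R2, filled where the bin holds 20 genes or more; from the third bin on the medians of both lie between -0.49 and -0.13.

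Over the 17 libraries, the log2 levels of the 5 genes from Cldn12 to Steap1 correlated with each other at Pearson's r of 0.827 to 0.988 (10 pairs), and those of Sema3a with each of the 5 at 0.459 to 0.722. The libraries fall into the groups described above, so these values describe the group pattern. For the 5 genes from Cldn12 to Steap1, the most similar genes were sought among 10326 others. Each of those had at least 100 normalized counts on average over the 17 libraries. The gene most like Cldn12 was Gtpbp10 (r = 0.980), and the gene most like Cfap69 was Krit1 (0.992). The gene most like both Steap2 (0.997) and Steap1 (0.994) was Sema3e. Krit1, which encodes a protein of endothelial junctions, and Sema3e, another class 3 semaphorin, lie on chromosome 5 at chr5:3803184-3845564 and chr5:14025276-14256689. Of the 3 most similar genes of each, those of Gtpbp10, Steap2 and Steap1 all lay on chromosome 5, as did 2 of the 3 of Cfap69 and 1 of the 3 of Cldn12. For Sema3a they were Mfsd4 (r = 0.948), which was not matched to a position, and Rgs3 and Mtss1, which lie on chromosomes 4 and 15.

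The families of the genes were then read as wholes. In treated 4T1R2 against treated 4T1R1, 21.3% of all genes were called lower and 22.7% higher, so the counts given for this comparison stand beside those shares. The 6 genes are members of their families and enter the counts as chosen, so their own calls there are a description and not tests. Of the 4 STEAP genes tested, Steap3, which lies elsewhere in the genome, had 1063 ± 57.1 normalized counts in untreated 4T1, 1062 ± 12.01 in untreated 4T1R1 and 966 ± 40.1 in untreated 4T1R2 (SD, n = 3). In treated cells Steap3 had a log2FC of -0.14 ± 0.056 (SE) in 4T1R2 against 4T1R1, with an adjusted P-value of 0.0378 (edgeR). The drug response of Steap3 passed the test in no population.

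In treated 4T1R2 against treated 4T1R1, 11 class 3 semaphorins and receptors were tested, of 14 listed. Of these, 9 were called lower and 1 higher (21.3% and 22.7% of all genes). The median log2FC was -0.48 against -0.012 over all genes. The 9 include Sema3a, which was chosen, and Sema3e and Sema3c, which lie beyond it on chromosome 5. Sema3c, at chr5:17574281-17730268, had a log2FC of -1.48 ± 0.23 (SE). Sema3e had a log2FC of -2.33 ± 0.034 (SE) in this comparison, at 3522 ± 118 normalized counts in 4T1R2 and 17737 ± 244 in 4T1R1 (SD, n = 3 each). Nrp1, a receptor that binds Sema3a, and Nrp2 had log2FCs of 0.11 and -0.15, and both passed the test.

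Of 9 claudins of epithelia tested, of 12 listed, 1 rose in the response of 4T1 to 17-DMAG, Cldn12, and 4 fell, beside 18.4% of all genes that rose and 17.9% that fell, with a median log2FC of -0.30 against 0.00064 over all genes. Cldn4 fell by 1.39 ± 0.11 (SE) and Cldn9 by 1.03 ± 0.18 on the log2 scale. In treated 4T1R2 against treated 4T1R1, 4 claudins were called higher and 1 lower, beside 22.7% and 21.3% of all genes. Cldn7 was among the higher ones, with a log2FC of 1.08 ± 0.11 (SE). The 1 lower was Cldn12, which was chosen with this comparison known.

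Of 6 mitochondrial ribosome assembly GTPases, 1 was called higher and 1 lower in treated 4T1R2 than in treated 4T1R1. These counts are near the shares of all genes (22.7% and 21.3%), and the median log2FC was 0.019. The higher gene was Noa1, with a log2FC of 0.35 ± 0.049 (SE), and the lower was Gtpbp10, which was chosen. Of 9 tested cilia and flagella associated genes, of 17 listed, 3 were called lower (21.3% of all genes) and 0 higher (22.7%) by edgeR. That is for treated 4T1R2 against treated 4T1R1, with a median of -0.30, and the 3 include Cfap69, which was chosen. Cfap97 had a log2FC of -0.29 ± 0.065 (SE) where Cfap69 had -2.06.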

How the data were processed

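RNA was depleted of ribosomal RNA and stranded libraries were made. Reads were demultiplexed with bcl2fastq 2.20, aligned with STAR to mm10/GRCm38 and assigned to genes with featureCounts of Subread 1.6.2, and the authors deposited whole-number counts per gene symbol without normalization, per the labels and the submitters' processing notes. Whether strand was used in counting is not given in the sources used here. Counts from 1 to 12 were even in 65.6% to 70.8% of genes that had them, library by library, so both reads of a pair appear to have been counted.

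Counts were filtered with filterByExpr, scaled by TMM and fitted with edgeR 4.0.16 in R 4.3.3, as 6 group means without an intercept. Quasi-likelihood tests were adjusted by the Benjamini-Hochberg method over 13507 genes, with a threshold of 0.05. SE is the size of the log2FC divided by the square root of F. A pair of treated 4T1 libraries (mean chi-square 1.10 across genes whose counts in both libraries summed to 4 to 30, against 2.04 to 2.22 in the 17 other pairs within groups) was averaged. P-values measure the spread between the libraries, which the series design calls biological replicates.

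The 6 genes and all gene lists were chosen with earlier results of these data known. Comparisons of treated populations were planned as tests and are given for the 6 genes as a description, since that choice covered all 6 groups. Named genes were the 6 genes, genes of the span and their direct neighbours, the most similar genes, and up to 4 most expressed relatives per family. Cyp51 and Lrrd1, the ends of a range, and Sema3c were named after their values were seen. Positions and exon lengths are from GENCODE M21, to which 23376 of 24421 symbols were matched, and promoters from RefSeq on GRCm38.p6. Protein sequences were not used here. Alternatives were DESeq2 1.42.0, RLE and total-count scaling, dropping the filter or requiring 10 counts in each library, fitting each comparison's groups alone, keeping all 18 libraries apart, the replicate block and each library left out in turn. A fit without the ribosomal precursor Rn45s, 9.54% to 15.6% of counts, was added after seeing the data. The code was tested on simulated data. Figures were drawn with matplotlib 3.10.9.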

Additional observations from a re-analysis of the deposited data

Results flagged for a closer look

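The response to 17-DMAG differed between populations for 4 of the 6 genes, by a test of the difference between responses (edgeR, adjusted over all genes), beside 18.2% of all genes that differed between 4T1R1 and 4T1 and 17.8% between 4T1R2 and 4T1. Against 4T1, the response of Cldn12 was lower by a log2 difference of -0.33 in 4T1R1 and of -0.41 in 4T1R2. For Steap1 the differences were -0.17 in 4T1R1 and -0.26 in 4T1R2. Gtpbp10, at -0.31, and Steap2, at -0.15, differed in 4T1R2. The calls of Steap1, Gtpbp10 and Steap2 were lost when certain single libraries were left out. Under total-count scaling the call of Steap1 in 4T1R1 and those of Gtpbp10 and Steap2 in 4T1R2 were also lost. With each library left out, the number of genes called ran from 1 to 2 in 4T1R1. In 4T1R2 it ran from 2 to 5, leaving aside treated 4T1 replicate 3, without which that group holds 1 sample. The 5 came without treated 4T1R2 replicate 2, where Sema3a gained a call. The treated 4T1 group, which enters each of these differences, holds 2 samples, and the 4T1R1 and 4T1R2 differences share it.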

How the results depend on the processing

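Of the values computed under the alternatives, 1887 kept their direction and, where tested, their side of the threshold. Untreated comparisons have no threshold, and their values were counted there when they moved by less than the spread between replicates. Among the tested values, 23 lost and 8 gained a call. Another 13 changed sign, all of them values of Cfap69 or Steap2. These did not pass the test or, in untreated cells, were not tested. In treated cells 5, 5 and 6 of the genes were past the threshold, beside 52.7%, 53.8% and 44.0% of all genes. The comparisons are 4T1R1 against 4T1, 4T1R2 against 4T1 and 4T1R2 against 4T1R1, in that order. As these genes were chosen, the counts are a description and nothing is read from them. For responses within a population the counts were 4, 4 and 3. Both sets of counts were within 1.5 times of these under each alternative.

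The counts of differing responses were less stable. Between 4T1R1 and 4T1 the count of 2 fell to 1 with no filter and with the replicate block. It ran from 1 to 2 with each library left out. Under total-count scaling Steap1 lost its call in this difference (-0.021, adjusted P-value 0.849 by edgeR). Cfap69 then gained a call in the other direction (0.44, adjusted P-value 0.00864 by edgeR). Between 4T1R2 and 4T1 the count of 4 fell to 2 under total-count scaling and ran from 1 to 5 with each library left out. Between 4T1R2 and 4T1R1 the count of 0 rose to 1 under total-count scaling (Steap2, -0.18) and ran from 0 to 1 with each library left out (Sema3a, without treated 4T1R2 replicate 2). In untreated 4T1R2 against 4T1, the 1 gene at least 2-fold apart, Sema3a, was removed by the minimum of 10 counts, which left 0. The cause of the other changes was not tested.

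Under total-count scaling the Steap2 difference between 4T1R1 and 4T1 was 0.0998. Cfap69 in 4T1R2 against 4T1 was then 0.064 for the difference of responses, 0.0728 in treated cells and 0.00877 in untreated cells, and with each library left out these ran from -0.0995 to 0.111, from -0.0532 to 0.0471 and from -0.122 to 0.0831. In 4T1 this scaling also called Cfap69 lower with 17-DMAG (-0.29), and in 4T1R2 it lost the call of Steap2 (0.10). It moved the median log2FC of all genes by -0.116 in the 4T1 response, 0.150 in the 4T1R1 minus 4T1 difference and 0.176 in treated 4T1R1 against 4T1. Higher genes as a share of all calls went from 50.7% to 21.6%, 49.2% to 64.2% and 58.7% to 24.2% in the responses of 4T1, 4T1R1 and 4T1R2. In the differences against 4T1 they went from 50.2% to 89.4% (4T1R1) and 54.1% to 76.8% (4T1R2), and in 4T1R2 minus 4T1R1 from 56.9% to 9.08%. In treated cells they went from 47.6% to 75.7%, 48.0% to 62.4% and 51.6% to 29.3%.

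Over all genes, the 288 calls of the 4T1R2 minus 4T1R1 difference became 672 under total-count scaling, 449 with no filter, and 177, 183 and 155 without treated 4T1R1 replicate 1, untreated 4T1R2 replicate 2 or treated 4T1R2 replicate 3. The 2464 calls of the 4T1R1 minus 4T1 difference became 3955 under total-count scaling and 1585 without treated 4T1 replicate 3, which also took the 2401 calls of the 4T1R2 minus 4T1 difference to 1565. The 1423 calls of the 4T1R2 response became 929 without treated 4T1R2 replicate 1.

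Replicate numbers did not pair the samples: over 45 pairs with the same number, deviations from the group means correlated at -0.0456 to 0.0526. With the replicate number as a block, over 18 separate libraries, the counts of genes past the threshold were 4, 4 and 3 for the responses. In treated cells they were 5, 5 and 6, again a description from which nothing is read. With this block Steap1 lost its call in the 4T1R1 minus 4T1 difference (-0.15, adjusted P-value 0.0576 by edgeR). Sema3a is limited by depth, with 0 to 12 reads per library in 4T1R2.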
